A study of Mus musculus with 30 samples.

Results

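The genes described here are 40 mitosis and kinetochore genes, the machinery that builds the spindle, attaches chromosomes to it and divides the cell. They were taken from a list of gene symbols. A gene was measured by its transcript cluster (the probe set of a gene) that carried no other symbol. Where it had several, the brightest on average was taken. By this rule 39 of the 40 genes were measured, among 23385 clusters with a gene symbol. Ccnb1, which encodes cyclin B1, had no cluster and is not analysed here. Top2a alone had a further cluster of its own.

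The arrays came from the mouse embryonic stem cell clone NgR (AINV15_Nanog_Rescue), in which Nanog depends on doxycycline. Its parent cells, spelled Aniv15 in the labels, express the doxycycline-responsive activator rtTA, and it was kept on primary mouse embryonic fibroblasts. The withdrawal groups were taken 1, 3 and 5 days after doxycycline had been removed. The pulsed groups had the same 1, 3 or 5 days of withdrawal and then 12 h with doxycycline. Their time-matched controls had those days and a further 12 h without it. The group at day 0 was still on doxycycline at 1 ug/ml, which all groups had received before withdrawal. Each of the 10 groups had 3 arrays, 30 in all, of a single clone. No group was kept on doxycycline throughout and none lacked the doxycycline-dependent Nanog, so withdrawal, time in culture and doxycycline itself cannot be told apart. Whether replicates came from separate cultures is not stated, and p-values reflect the spread between arrays, which may be technical.

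Values are RMA log2 signals, comparable between arrays for the same gene but not between genes, and changes are differences of group means with standard errors. A rise or fall is reported where the adjusted p-value of limma (Benjamini-Hochberg over the 23385 clusters) was under 0.05. Array medians lay between 7.32 and 7.46. The interquartile range of an array, a measure of how widely its values are spread, ran between 2.43 and 2.95, and the 4 widest arrays were all time-matched controls. Nanog averaged 11.03 ± 0.023 on day 0 (SD, n = 3), 10.24 ± 0.075 after 1 day, 10.51 ± 0.050 after 3 days and 9.85 ± 0.21 after 5 days without doxycycline. It averaged 11.09 in pulsed cells and 10.30 in controls at day 1, 10.97 and 10.17 at day 3, and 10.84 and 10.07 at day 5. The 10 stem cell markers had a mean signal of 11.5 at day 0 and 10.6 at day 5 of withdrawal. By then 8 of the 10 had fallen, as had 18.8% of all clusters. The 10 include Nanog itself, the gene made to depend on doxycycline.

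Mitosis is driven by cyclin-dependent kinase Cdk1 with cyclins of the A and B types, and is carried on by the Polo and Aurora kinases. Kinetochores built on the centromeric histone Cenpa hold the spindle microtubules, and the spindle checkpoint keeps Cdc20 from activating the anaphase-promoting complex until all chromosomes are attached. Many of these genes are transcribed together late in the cell cycle, under the DREAM complex in quiescence and early phases and under MYB-MuvB and FOXM1 later. MuvB reaches such promoters through the cell cycle genes homology region (CHR), often near CCAAT boxes bound by NF-Y. Mouse embryonic stem cells are known for a short G1 phase and rapid division.

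Most promoters of the members held these motifs. Windows of 300 bases, 250 before to 50 after the annotated start, came from RefSeq (GRCm38.p6), and 31 of the 39 members had an entry, of which the first listed was used for the 4 members with several. The CHR core TTTGAA and the box CCAAT were searched on both strands. TTTGAA was present in 24 of the 31 promoters (77.4%), against 18.1% of the promoters of all 27025 genes. CCAAT was present in 25 (80.6%), against 37.9% of all, and both motifs in 21 (67.7%), against 7.12%. No TTTGAA match overlapped a CCAAT match, and in 22 members a TTTGAA match began within 50 bases of the start. The following 150 bases, 120 before the start and 30 from it, are shown because they belong to the 3 largest rises and 3 largest falls at day 5 among members with both motifs wholly inside the window. Capitals mark the CHR core and the CCAAT box, which reads ATTGG where it lies on the other strand, and each line runs 5′ to 3′ along the gene.
Kif4: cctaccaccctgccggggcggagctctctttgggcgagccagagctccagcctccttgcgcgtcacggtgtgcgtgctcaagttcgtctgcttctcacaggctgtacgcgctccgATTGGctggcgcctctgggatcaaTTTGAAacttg
Prc1: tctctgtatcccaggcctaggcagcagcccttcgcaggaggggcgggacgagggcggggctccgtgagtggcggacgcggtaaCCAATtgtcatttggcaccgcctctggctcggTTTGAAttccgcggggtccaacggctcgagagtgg
Cenpf: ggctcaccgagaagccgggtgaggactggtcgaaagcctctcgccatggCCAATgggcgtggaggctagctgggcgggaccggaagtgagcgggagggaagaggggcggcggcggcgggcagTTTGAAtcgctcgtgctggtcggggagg
Cdc20: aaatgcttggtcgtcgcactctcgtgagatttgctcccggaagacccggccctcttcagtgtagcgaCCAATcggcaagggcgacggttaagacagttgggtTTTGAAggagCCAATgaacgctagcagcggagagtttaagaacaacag
Spc25: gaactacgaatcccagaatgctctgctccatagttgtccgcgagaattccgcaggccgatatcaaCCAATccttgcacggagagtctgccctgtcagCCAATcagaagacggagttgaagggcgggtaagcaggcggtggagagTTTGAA
Cenpa: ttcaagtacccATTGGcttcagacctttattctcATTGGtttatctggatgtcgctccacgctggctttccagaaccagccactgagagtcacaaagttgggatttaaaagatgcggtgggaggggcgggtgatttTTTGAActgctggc
The windows are chrX:100625945-100626094 on the plus strand for Kif4, chr7:80294331-80294480 on the plus strand for Prc1 and chr1:189688057-189688206 on the minus strand for Cenpf. They are chr4:118437314-118437463 on the minus strand for Cdc20, chr2:69206184-69206333 on the minus strand for Spc25 and chr5:30666766-30666915 on the plus strand for Cenpa. The first 3 genes rose and the last 3 fell at day 5, and all 6 carry both motifs. Over the 31 promoters, TTTGAA was present in 8 of the 10 members that rose at day 5, in 4 of the 5 that fell and in 12 of the 16 that did neither. Birc5, Mad2l1 and Nuf2 had neither motif in this window.

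Relative to day 0, mitosis genes changed in both directions after withdrawal. After 5 days 14 of the 39 rose and 7 fell, where 23.8% of all tested clusters rose and 18.8% fell, so that the count of falls was near the share over all clusters. The median change was -0.01 (log2) both for the 39 and for all clusters. The genes that rose were led by Kif4, Anln, Cenpk and Prc1, which serve the central spindle, the contractile ring and the kinetochore. Those that fell were led by Birc5, Cdc20 and Spc24. The arrays of the 2 days did not overlap for 15 members that were higher and 12 that were lower, where 29% and 25.4% of all clusters stood apart in that way. At day 3, 12 had risen and 6 had fallen, where 19.6% and 14.3% of all clusters had, with a median of 0.09 against 0.02. At day 1 only Birc5 had fallen, where 3.02% of all clusters had, and none had risen, where 3.49% had, with an unadjusted p under 0.05 for 7 members (limma). These comparisons share the day 0 arrays. With quantile normalization the split was 18 higher and 5 lower at day 3, and 15 higher and 4 lower at day 5. With the interquartile range of the array as a covariate it was 14 higher and 13 lower at day 5. Without replicate 3 of day 0, 13 members passed at day 5 in place of 21.

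**Figure D1:**
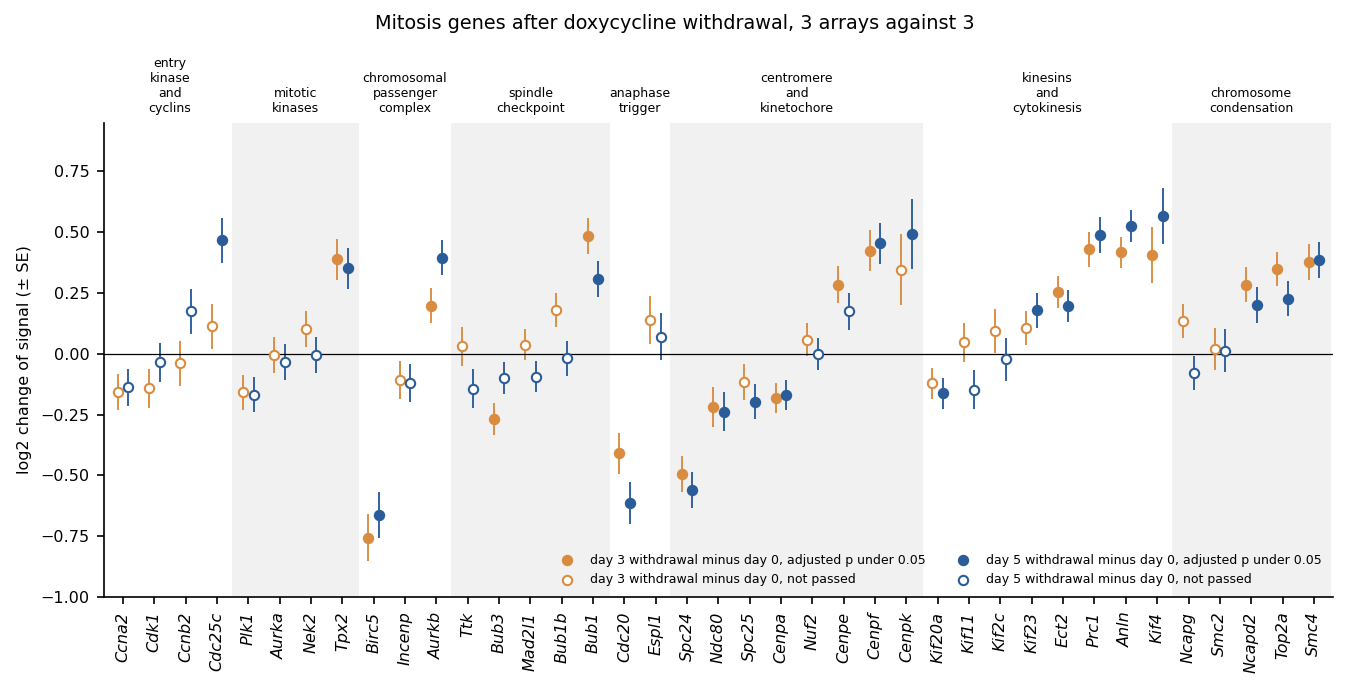
Change of each of the 39 members (log2, vertical axis, with standard error) at day 3 and day 5 of withdrawal against day 0, grouped by role, with filled points where the adjusted p was under 0.05. At day 5 rises and falls occur together among the passenger complex, the kinetochore genes and the kinesins and cytokinesis genes. In each other role they went 1 way only. The day 5 changes ran from 0.57 for Kif4 to -0.66 for Birc5.

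Among the kinase and cyclins of mitotic entry, 1 of 4 rose at day 5, near the 23.8% of all clusters that rose. Cdk1, the kinase that starts mitosis, had signals of 10.92, 11.02 and 10.99 at day 0, 10.72, 10.89 and 10.86 at day 1, 10.81, 10.90 and 10.81 at day 3 and 11.03, 10.99 and 10.81 at day 5. The day 5 and day 0 arrays overlapped, and the difference was -0.03 with a 95% interval of -0.20 to 0.13 (adjusted p = 0.772). Cdc25c, the phosphatase that switches Cdk1 on, had 9.37, 9.32 and 9.23 at day 5 against 8.71, 9.01 and 8.81 at day 0. All 3 day 5 arrays of Cdc25c were above all 3 of day 0, a change of 0.47 ± 0.091 (adjusted p = 0.000129), or 1.38-fold. Cdc25c was also the only member that rose between days 3 and 5, by 0.35 (adjusted p = 0.00904). The cyclins Ccnb2 and Ccna2 differed from day 0 by 0.18 (adjusted p = 0.134) and -0.14 (adjusted p = 0.141) at day 5.

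Of the mitotic kinases and their activator, only Tpx2 rose, where 23.8% of all clusters rose at day 5. Plk1, the Polo kinase of centrosomes, kinetochores and cytokinesis, had 10.64, 10.63 and 10.58 at day 5 against 10.80, 10.76 and 10.78 at day 0. Its day 5 arrays were all below those of day 0, but the change of -0.17 ± 0.072 did not pass (adjusted p = 0.0611). Tpx2, which brings Aurora A to the spindle and activates it, rose by 0.39 ± 0.085 at day 3 (adjusted p = 0.00073) and 0.35 ± 0.085 at day 5 (adjusted p = 0.00138). Aurka, the Aurora A kinase itself, differed from day 0 by -0.03 (95% interval -0.19 to 0.12) at day 5. Nek2, a kinase of centrosome separation, differed by -0.01 (-0.16 to 0.15).

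The chromosomal passenger complex corrects faulty attachments and later guides cytokinesis. At day 5, 1 of its genes fell, 1 rose and 1 did not pass, where 18.8% of all clusters fell and 23.8% rose. Birc5, its survivin subunit, had 9.90, 9.84 and 10.00 at day 0, 9.58, 9.52 and 9.54 at day 1, 9.19, 9.07 and 9.21 at day 3 and 9.39, 9.27 and 9.09 at day 5. On each withdrawal day its 3 arrays were below all 3 of day 0. The change of Birc5 was -0.37 ± 0.095 at day 1 (adjusted p = 0.0172), -0.76 ± 0.095 at day 3 (adjusted p = 5.79e-07) and -0.66 ± 0.095 at day 5 (adjusted p = 1.93e-06), the last 0.632-fold. The day 1 fall did not pass without replicate 3 of day 0, or without replicate 2 or 3 of day 1. Aurkb, the kinase of the complex, had 10.51, 10.59 and 10.70 at day 5 against 10.11, 10.28 and 10.22 at day 0, with no overlap. Aurkb rose by 0.40 ± 0.072 (adjusted p = 4.88e-05). Incenp, the scaffold, differed by -0.12 (95% interval -0.28 to 0.04).

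Of the spindle checkpoint, Bub1 rose and the other 4 genes did not pass at day 5, where 23.8% of all clusters rose. Bub1, a kinase that loads the checkpoint on kinetochores, had 10.85, 10.87 and 10.75 at day 0, 11.01, 11.13 and 11.01 at day 1, 11.33, 11.32 and 11.28 at day 3 and 11.19, 11.20 and 11.00 at day 5. It was 0.48 ± 0.074 above day 0 at day 3 (adjusted p = 9.55e-06) and 0.31 ± 0.074 above it at day 5 (adjusted p = 0.00129). Bub3, which binds Bub1 and Bub1b, was lower at day 3 than at day 0, with a change of -0.27 ± 0.066 (adjusted p = 0.00216). Its difference of -0.10 at day 5 did not pass (adjusted p = 0.251). Ttk, the checkpoint kinase also called Mps1, Mad2l1, which holds Cdc20 inactive, and Bub1b, a Cdc20 inhibitor, had day 5 changes of -0.14, -0.09 and -0.02.

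Cdc20, the activator of the anaphase-promoting complex, was lower at days 3 and 5 than at day 0. Its signals were 10.72, 10.85 and 10.77 at day 0, 10.57, 10.63 and 10.63 at day 1, 10.45, 10.35 and 10.31 at day 3 and 10.29, 10.22 and 9.99 at day 5. Every Cdc20 array of a withdrawal day was below every array of day 0. The change was -0.41 ± 0.085 at day 3 (adjusted p = 0.000406) and -0.61 ± 0.085 at day 5 (adjusted p = 1.19e-06), or 0.654-fold at day 5. Espl1, separase, the protease that cuts cohesin at anaphase, differed from day 0 by 0.07 at day 5 (95% interval -0.13 to 0.27).

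The 8 centromere and kinetochore genes split into 2 that rose, 4 that fell and 2 that did not pass at day 5. Among all clusters 23.8% rose and 18.8% fell. Spc24 had 9.86, 9.84 and 9.62 at day 5 against 10.31, 10.35 and 10.34 at day 0, well apart. Spc24 fell by 0.56 on the log2 scale (SE 0.073, adjusted p = 4.15e-07), to 0.678-fold. Spc24 and Spc25 form the inner end of the NDC80 complex, which couples kinetochores to microtubules, and Ndc80 and Nuf2 its outer end. Ndc80 fell by 0.24 (adjusted p = 0.0181) and Spc25 by 0.20 (adjusted p = 0.0313), and Nuf2 differed by less than 0.01 with a 95% interval of -0.14 to 0.14.

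Cenpa had 10.52, 10.47 and 10.46 at day 5 against 10.59, 10.67 and 10.70 at day 0, a small but complete separation. The change of Cenpa was -0.17 ± 0.062 (adjusted p = 0.0287). Cenpk, a subunit of the constitutive centromere network, had 8.73, 8.61 and 8.44 at day 5 against 8.11, 8.18 and 8.002 at day 0, and rose by 0.49 ± 0.14 (adjusted p = 0.0067). Its standard error was the largest of the members. Cenpf, a large protein of the outer kinetochore, had 9.95, 9.99 and 9.86 at day 5 against 9.52, 9.55 and 9.37 at day 0 and rose by 0.45 ± 0.084 (adjusted p = 6.98e-05). The kinetochore motor Cenpe was higher at day 3, by 0.28 (adjusted p = 0.00442), and was 0.18 above day 0 at day 5 (adjusted p = 0.0663).

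Genes of the central spindle and cytokinesis gave 5 rises and 1 fall among 8 at day 5, where 23.8% of all clusters rose and 18.8% fell. Kif4, a kinesin of chromosome arms and the central spindle, had 8.71, 8.84 and 8.58 at day 0, 8.61, 8.88 and 8.73 at day 1, 9.14, 9.24 and 8.97 at day 3 and 9.26, 9.31 and 9.25 at day 5. Days 0 and 1 overlapped for Kif4, and the arrays of days 3 and 5 were above both. The day 5 change was 0.57 ± 0.12 (adjusted p = 0.0002), or 1.48-fold. Anln, the ring protein anillin, had 11.02, 10.98 and 10.96 at day 5 against 10.52, 10.52 and 10.35 at day 0 and rose by 0.53 ± 0.065 (adjusted p = 1.94e-07). Prc1, which bundles the microtubules of the central spindle and recruits Kif4, had 10.66, 10.71 and 10.70 at day 5 against 10.21, 10.32 and 10.07 at day 0. Prc1 rose by 0.49 ± 0.074 (adjusted p = 4.07e-06). Ect2, the activator of RhoA at the equator, rose by 0.20 (adjusted p = 0.0155), and Kif23, the motor of the centralspindlin complex, by 0.18 (adjusted p = 0.0433). Kif20a, a kinesin that carries the passenger complex to the central spindle, fell by 0.16 (adjusted p = 0.0376). The spindle motor Kif11 and the microtubule depolymerase Kif2c differed by -0.15 and -0.02 and did not pass.

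**Figure D2:**
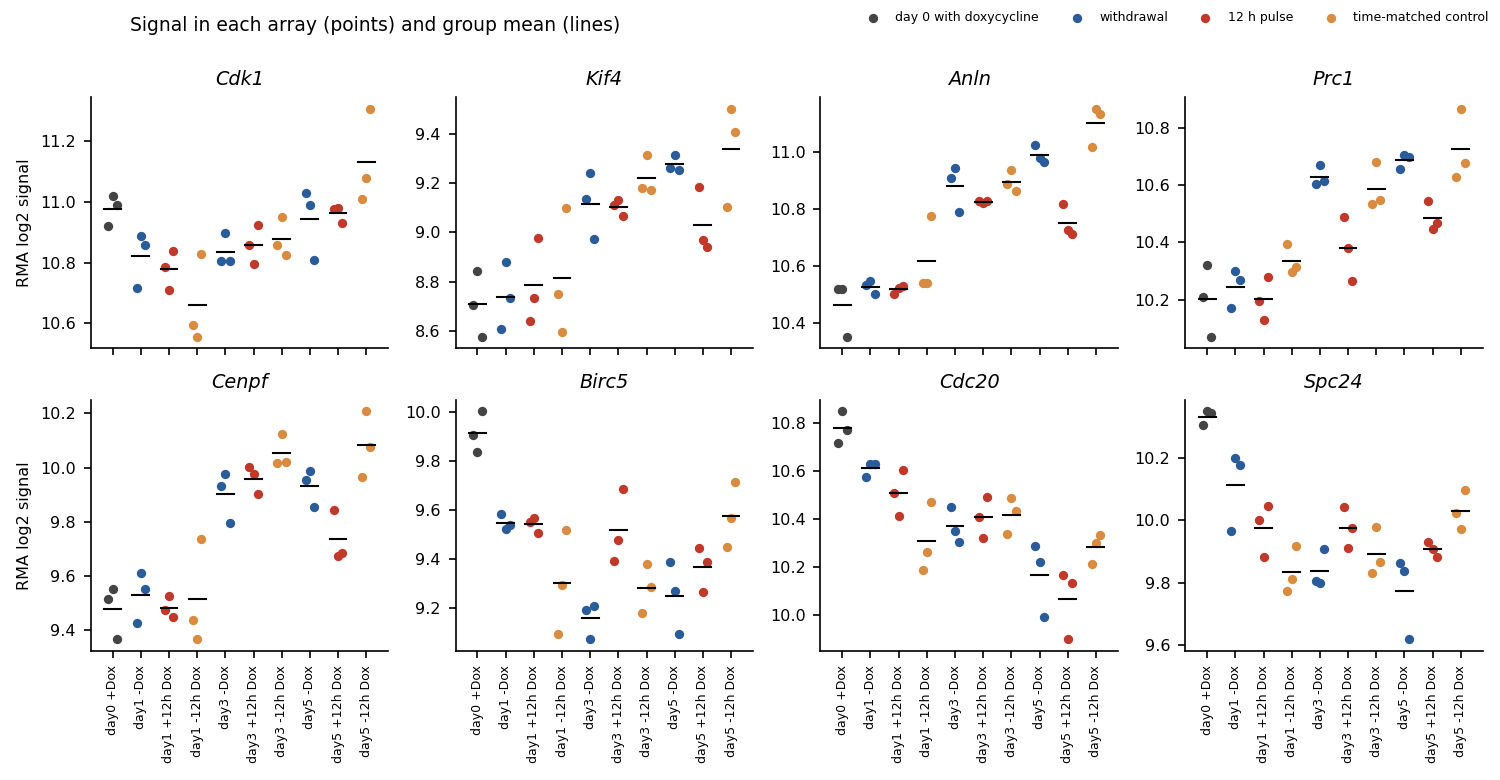
RMA log2 signal of 8 members in each of the 30 arrays, by group along the horizontal axis, with points for arrays and lines for group means. The means of Kif4, Anln, Prc1 and Cenpf are higher at days 3 and 5 of withdrawal than at day 0, and Birc5, Cdc20 and Spc24 have their highest mean at day 0.

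Of the genes of chromosome condensation, 3 of 5 rose at day 5, where 23.8% of all clusters rose. Smc4, a core ATPase of condensin, rose by 0.39 ± 0.075 at day 5 (adjusted p = 0.000123). The condensin I subunit Ncapd2 rose by 0.20 (adjusted p = 0.0268), while its partners Smc2 and Ncapg differed by 0.01 and -0.08 and did not pass. Top2a, the topoisomerase that untangles sister chromatids, had 11.65, 11.62 and 11.70 at day 5 against 11.49, 11.49 and 11.32 at day 0. Its arrays did not overlap, and the change was 0.23 ± 0.072 (adjusted p = 0.0116), after 0.35 at day 3 (adjusted p = 0.000355). The other cluster of Top2a gave 0.43 at day 3 (adjusted p = 0.0267) and 0.30 at day 5 (adjusted p = 0.108).

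Over 11 other settings and 6 fits that each left out an array, 13 of the 21 day 5 calls passed every time: Cdc25c, Tpx2, Aurkb, Bub1, Cenpf, Cenpk, Kif4, Prc1, Anln and Smc4 higher, and Birc5, Cdc20 and Spc24 lower. The other 8, Ndc80, Spc25, Cenpa, Kif20a, Kif23, Ect2, Top2a and Ncapd2, missed the threshold in at least 1 of these fits, and all 8 missed it without replicate 3 of day 0. Of the 11 settings, that of the member cluster of lowest mean could alter only Top2a, so for the other members it repeated the reported fit. Between days 1 and 3, 12 members rose and 4 fell. In that step 13.2% of all clusters rose and 9.77% fell. Between days 3 and 5 Cdc25c was the only member to rise, where 7.59% of all clusters rose, and Ncapg the only member to fall, by 0.21 (adjusted p = 0.0425), where 4.75% fell.

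The members did not all vary together. Over the 10 group means, the Pearson correlation between 2 members had a median of 0.28 over the 741 pairs and ran from -0.80 to 0.99. It was over 0.5 in 244 pairs and under -0.5 in 52. The points share the arrays and their normalization.

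Other genes of the cell cycle were counted for comparison. Of 87 further mitosis genes, 25 rose and 20 fell at day 5, with a median of 0.06, where 23.8% of all clusters rose and 18.8% fell. Their largest changes were -0.9995 for Cenpp and -0.73 for Cenpu, both of the constitutive centromere network, -0.89 for the abscission protein Cep55 and 0.70 for Ska2, a kinetochore protein. Genes of DNA replication went mostly down: 24 of 36 fell and 1 rose, with a median of -0.38, and Ccne1 (-1.11), Pola1 (-1.09), Rrm2 (-1.02) and Tyms (-0.95) led. These encode cyclin E1, a subunit of DNA polymerase alpha and enzymes that supply deoxynucleotides. At day 3, 16 of the 36 had fallen and 4 had risen, where 14.3% of all clusters had fallen and 19.6% had risen.

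**Figure D3:**
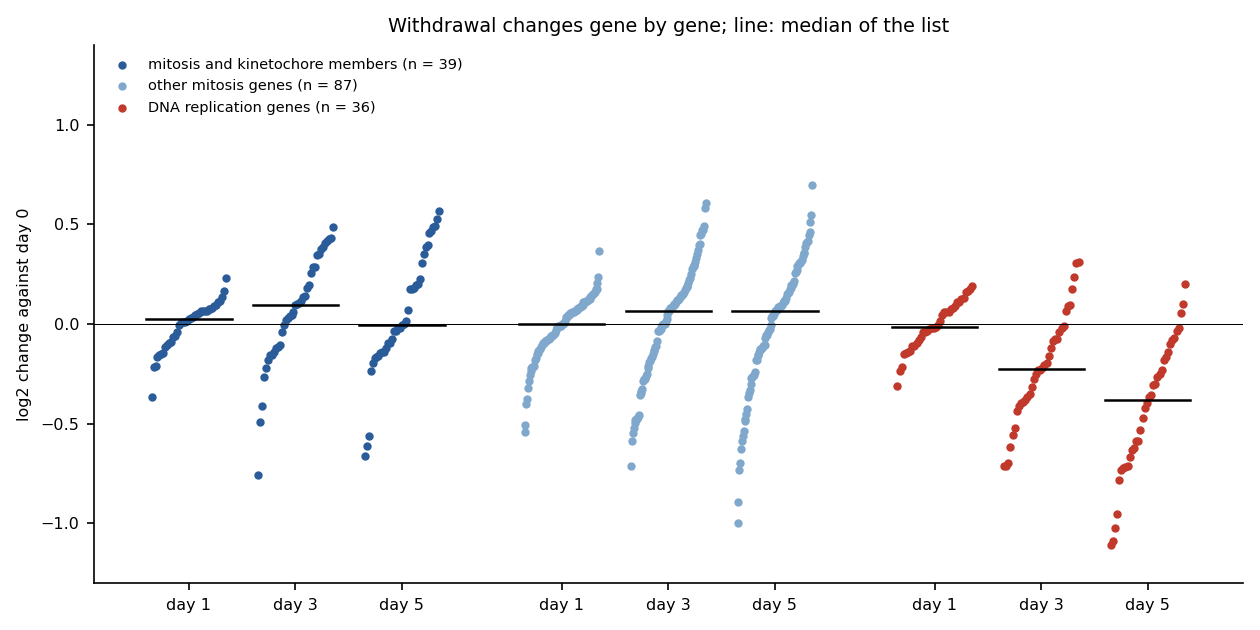
Change against day 0 (log2) of each gene in 3 lists at days 1, 3 and 5 of withdrawal, ordered within each list, with a line at the median. The 39 members and 87 other mitosis genes spread to both sides of 0, and the median of the 36 DNA replication genes is -0.38 at day 5.

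Among 23 subunits and partners of the DREAM, MYB-MuvB and FOXM1 regulators, 6 rose and 7 fell at day 5, against the same 23.8% and 18.8% of all clusters. The retinoblastoma gene Rb1 rose by 0.82, while the changes were -0.60 for E2f4, the E2F factor of DREAM, -0.59 for the repressor E2f8 and -0.53 for the NF-Y subunit Nfyc. Of the 6 inhibitors of cyclin-dependent kinases measured, 5 rose. The changes were 1.04 for Cdkn1c, 0.58 for Cdkn2b, 0.43 for Cdkn2c and 0.42 for Cdkn1b.

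Markers of other cell types moved over the same days. At day 5, 23.8% of all clusters rose and 18.8% fell. Of 16 fibroblast markers 10 rose and 2 fell, and their mean signal was 8.44 to 8.54 in the day 5 arrays against 8.05 to 8.12 in those of day 0. Of 7 trophoblast markers 5 rose, with a mean of 9.60 to 9.65 at day 5 against 8.17 to 8.20 at day 0. Of 7 extraembryonic endoderm markers 3 rose, with a mean of 8.14 to 8.24 against 7.68 to 7.79. Their part in the changes of the mitosis genes was not tested, and in these bulk samples fewer cells of a type and less RNA per cell cannot be told apart.

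The change from day 1 to day 5 could be measured in 3 sets that share no arrays. In the pulsed cells 4 members rose and 7 fell, where 14.5% and 13.7% of all clusters did. In the time-matched controls 17 rose and 2 fell, where 16.4% and 15.8% of all clusters did. In the withdrawal arrays 11 rose and 7 fell, where 20.3% and 16.6% did. The controls gave 9 and 0 in a fit of those groups alone. Without the 4 widest arrays only replicate 1 of the day 5 controls was left, so no count is given for them. The pulsed arrays gave 7 and 11 with the interquartile range as a covariate and 8 and 17 with array weights. With quantile normalization the split was 8 and 6 in pulsed arrays and 16 and 5 in withdrawal arrays, and with arrays centred on their medians it was 2 and 5 in pulsed and 10 and 4 in withdrawal arrays.

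Cenpf, Prc1, Anln and Smc4 rose in all 3 sets and Mad2l1 fell in all 3. Of these, only Anln passed in all 3 sets under each of the 11 other settings and with any array left out. In at least 1 of those fits the calls of Cenpf and Smc4 were lost in the pulsed arrays, that of Prc1 in the controls, and that of Mad2l1 in the controls and in the withdrawal arrays. Anln rose by 0.23 in pulsed arrays (adjusted p = 0.00713), 0.48 in controls (adjusted p = 1.62e-06) and 0.46 in withdrawal arrays (adjusted p = 1.93e-06). Mad2l1 fell by 0.27 in pulsed arrays (adjusted p = 0.00138), 0.27 in controls (adjusted p = 0.00177) and 0.23 in withdrawal arrays (adjusted p = 0.00477). A further 6 genes, Ccnb2, Cdc25c, Tpx2, Cenpk, Kif23 and Kif4, rose in both the controls and the withdrawal arrays. Over the same fits Cdc25c, Cenpk and Kif4 passed each time in both sets. The control calls of Ccnb2, Tpx2 and Kif23 and the withdrawal call of Tpx2 were lost in at least 1. In the controls the day 5 and day 1 arrays of Ccnb2, Tpx2 and Cenpk overlapped. Across the 39 members, the Pearson correlation of the changes was 0.71 between withdrawal and control, 0.84 between withdrawal and pulsed and 0.79 between control and pulsed arrays. Over all tested clusters it was 0.79, 0.78 and 0.82 in the same order, and the points share the arrays and their normalization. The share of all clusters called alike in all 3 sets, or in both the controls and the withdrawal arrays, was not counted. Whether such shared calls are more frequent among the members than over all clusters was therefore not tested.

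**Figure D4:**
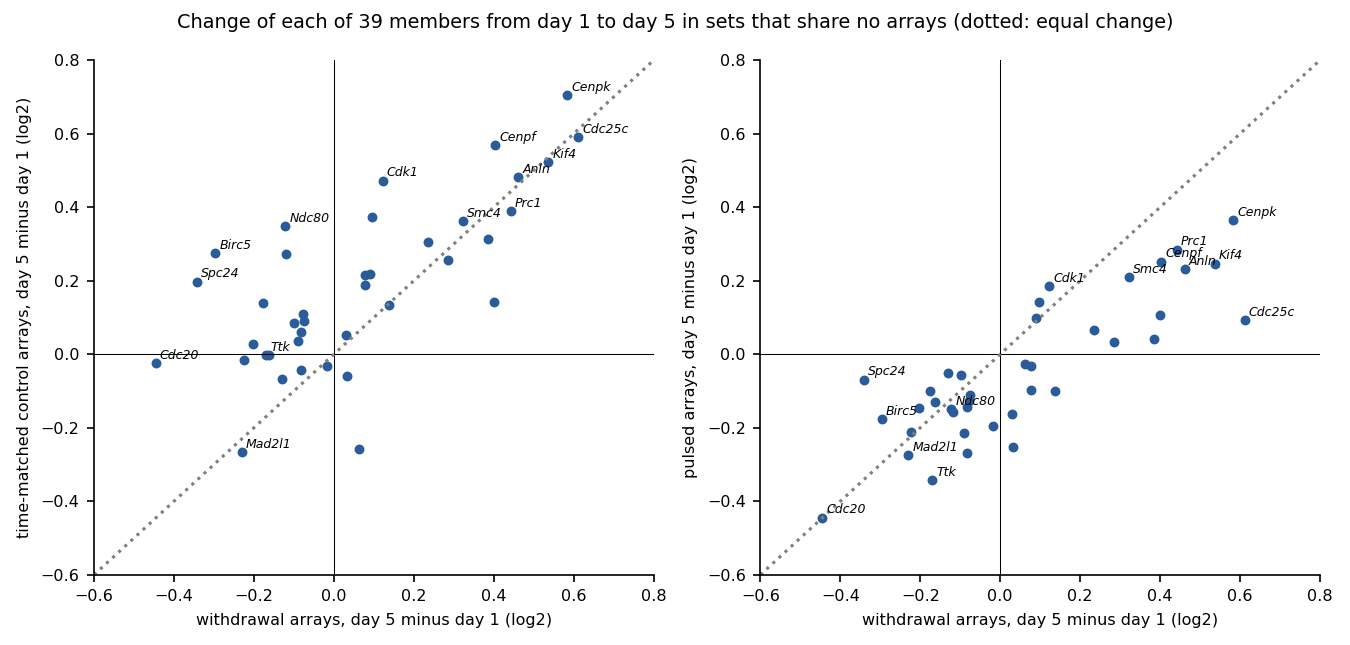
Change from day 1 to day 5 (log2) of each of the 39 members in the withdrawal arrays (horizontal axes) against the time-matched control arrays (left) and the pulsed arrays (right), which share no arrays, with a dotted line of equal change. Cenpf, Prc1, Anln and Smc4 lie at the upper right in both plots, and Birc5 and Spc24 lie at the upper left only in the plot with the controls.

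Birc5 and Spc24 were called in opposite directions in 2 of these sets. From day 1 to day 5 Birc5 rose by 0.27 in the controls (adjusted p = 0.028), whose arrays held 9.45, 9.57 and 9.71 at day 5 and 9.10, 9.29 and 9.52 at day 1. The arrays of the 2 days overlapped. In the withdrawal arrays it fell by 0.30 (adjusted p = 0.0148). The control rises of Birc5 and Spc24 and the withdrawal fall of Birc5 were each lost in at least 1 of the other fits, and the withdrawal fall of Spc24 passed in all of them. The test of the difference gave 0.57 ± 0.13 for Birc5 (adjusted p = 0.0123) and 0.54 ± 0.10 for Spc24 (adjusted p = 0.0027). Ndc80 (0.47, adjusted p = 0.0141), Cdc20 (0.42, adjusted p = 0.0365) and Kif20a (0.32, adjusted p = 0.032) also changed more upward in the controls than in the withdrawal arrays. Among all clusters 2.77% changed more upward and 3.02% more downward. The control arrays at day 1 already differed from those of day 1 of withdrawal. Over those 12 h without doxycycline Cdc20 fell by 0.30 (adjusted p = 0.0313), Spc24 by 0.28 (adjusted p = 0.0208) and Ndc80 by 0.27 (adjusted p = 0.0459), where 1.23% of all clusters fell. Aurkb rose by 0.25 (adjusted p = 0.0328) and Espl1 by 0.34 (adjusted p = 0.0376), where 5.02% rose. Over the corresponding 12 h at day 5, Cenpe rose by 0.29 (adjusted p = 0.0352) and Spc24 by 0.26 (adjusted p = 0.0478), where 2.32% of all clusters rose. No member passed at day 3 (limma), where 1.69% of all clusters did and 3 members had an unadjusted p under 0.05.

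The pulsed groups address what 12 h of returned doxycycline did to the members, against the same control arrays. At days 1 and 3 none passed (limma), where 3.75% and 0.0385% of all clusters did, while 5 and 4 members had an unadjusted p under 0.05. Without replicate 3 of the controls, 3 members passed at day 1. At day 5 all 39 members had lower means in pulsed cells than in the controls, and 17 passed, where 7.1% of all clusters were lower at that threshold and 5.13% were higher. The arrays did not overlap for 27 members, all lower, where 11.9% of all clusters were lower without overlap. The median change of the members was -0.22, against 0.02 for all clusters. The members are genes of high signal on these arrays. Their mean signals ranked from above 65.3% of the tested clusters for Cenpk to above 96.3% for Mad2l1. The shares over all clusters, here and in the other comparisons, were not matched for signal. The 17 comprised Ccnb2 and Cdc25c of mitotic entry, Aurkb, the checkpoint genes Bub1, Bub1b and Ttk, the kinetochore genes Cenpa, Cenpe, Cenpf, Ndc80 and Nuf2, the spindle and cytokinesis genes Kif20a, Prc1, Ect2 and Anln, and the condensation genes Top2a and Ncapd2.

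Cdc25c had 8.98, 8.81 and 8.85 in pulsed cells against 9.16, 9.36 and 9.46 in controls at day 5. The groups did not overlap, and the change was -0.45 ± 0.091 (adjusted p = 0.00372), or 0.734-fold. Cenpe had 9.65, 9.68 and 9.56 in pulsed cells against 9.86, 9.99 and 10.11 in controls, again without overlap, and a change of -0.35 ± 0.076 (adjusted p = 0.00554). Anln had 10.81, 10.72 and 10.71 in pulsed cells against 11.02, 11.15 and 11.13 in controls and changed by -0.35 ± 0.065 (adjusted p = 0.00187). Cdk1 differed by -0.17 with a 95% interval of -0.33 to -0.01 and did not pass (adjusted p = 0.141), and neither did Plk1 at -0.19 (adjusted p = 0.0778) or Cdc20 at -0.22 (adjusted p = 0.0831). Bub3 was nearest to no change, at -0.01. Of the 14 members that had risen over 5 days of withdrawal, 9 were lower with the pulse, as were 3 of the 7 that had fallen and 5 of the 18 others. The matching shares over all clusters were not counted. The Pearson correlation of the day 5 withdrawal change with the day 5 pulse change was -0.47 across the members. Over all tested clusters it was -0.24.

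The arrays of these groups also differed in width. The interquartile ranges were 2.44, 2.46 and 2.71 in the pulsed arrays of day 5 against 2.53, 2.93 and 2.95 in their controls, the last 2 being the widest of all 30. In the same order, the median of the members relative to day 0 was -0.11, -0.13 and -0.03 in the pulsed arrays. It was 0.03, 0.11 and 0.15 in the controls. With the interquartile range as a covariate only Anln passed, at -0.24 (adjusted p = 0.0265). None passed in a fit of these 2 groups alone. Without the 4 widest arrays only replicate 1 of the day 5 controls was left, and the median was -0.12. Leaving out an array gave 3 members without replicate 2 or 4 without replicate 3 of the pulsed arrays, and 4 without replicate 2, 5 without replicate 3 or 31 without replicate 1 of the controls. With array weights 33 passed. The share of all clusters that passed in these other fits was not counted.

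Set against the day 5 withdrawal arrays instead, a comparison chosen after the data were seen, 33 of 39 members were lower in pulsed cells and 7 passed, where 7.34% of all clusters were lower at that threshold and 4.22% higher. The median was -0.11. Those 7 were Cdc25c (-0.43, adjusted p = 0.00214), Ccnb2 (-0.31), Cenpa (-0.26), Ect2 (-0.25), Anln (-0.24), Aurkb (-0.23) and Top2a (-0.22), and each was among the 17. The interquartile ranges of those withdrawal arrays were 2.62 to 2.70. The pulsed cells had 12 h more in culture than the withdrawal cells, so those 12 h and doxycycline cannot be told apart in this comparison. The part of array width in the lower signals was not tested beyond these fits. In the same comparison 4 of 7 trophoblast markers were higher in pulsed cells, with a median of 0.31, 1 of 7 extraembryonic endoderm markers was higher and 3 of 16 fibroblast markers were lower. Their part in the lower signals was not tested.

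**Figure D5:**
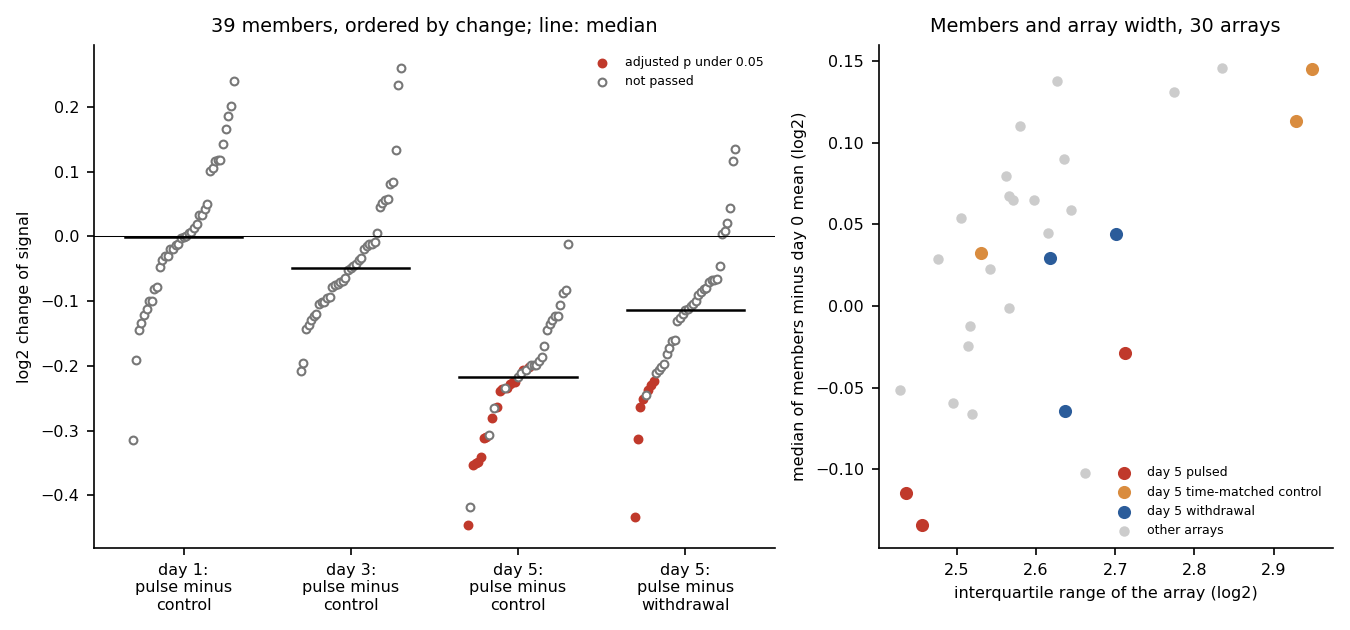
Left, change (log2) of each of the 39 members with the pulse at days 1, 3 and 5 against the time-matched control and at day 5 against withdrawal, with lines at the medians and filled points where the adjusted p was under 0.05. Right, median of the members relative to the day 0 mean against the interquartile range, for all 30 arrays, where the 2 widest arrays are controls of day 5.

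The pulse effects of the days were compared directly for each member. Ccnb2 had a pulse effect of -0.31 at day 5 and 0.26 at day 3, a difference of -0.57 ± 0.13 (adjusted p = 0.0362). Among all clusters 0.936% differed between these days. No other member did, and none differed between days 5 and 1, where 0.111% of all clusters did, or between days 3 and 1, where 0.00855% did (limma). An unadjusted p under 0.05 was reached by 21 and 1 members. Averaged over the 3 days, 12 members were lower with the pulse and none higher, where 14% and 6.8% of all clusters were. They were led by Cenpe (-0.22 ± 0.044, adjusted p = 0.00144), Prc1 (-0.19, adjusted p = 0.00343) and Anln (-0.17, adjusted p = 0.0032). With the interquartile range as a covariate the average passed for none of the members (limma), while 8 members had an unadjusted p under 0.05. Leaving out the 4 widest arrays kept only replicate 1 of the day 5 controls. The averages of Cenpe, Prc1 and Anln were then -0.16, -0.15 and -0.11. Among the other lists at day 5, 25 of 87 further mitosis genes and 3 of 23 DREAM and FOXM1 regulators were lower with the pulse and none higher. Of all clusters 7.1% were lower and 5.13% higher. Of the 36 DNA replication genes, 2 were higher and 1 lower against the controls. Against the withdrawal arrays of day 5, which had 12 h less in culture, 10 of the 36 were higher and none lower. In that comparison 15 of the 87 further mitosis genes were lower and none higher, where 7.34% of all clusters were lower and 4.22% higher.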

How the data were processed

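Each of 30 samples of total RNA was measured on 1 Affymetrix Mouse Gene 1.0 ST array. Per the submitters' processing notes, the authors used Expression Console (Affymetrix) and RMA, and deposited log2 signals, 1 for each transcript cluster. RMA removes background, forces arrays to a common distribution and combines the probes. Software versions and genome build are not given in the sources used here, so array features carry no coordinates. Arrays have no read depth, and 3 arrays a group limit the precision. Of 28815 clusters, 21780 had 1 gene symbol in the platform annotation, 1605 several and 5430 none. No replicate pair among 30 had identical values.

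One mean per group was fitted to all 30 arrays in limma 3.58.1 (R 4.3.3), without covariates, as no date or batch of the arrays is recorded. Moderated tests were adjusted by Benjamini-Hochberg over the 23385 clusters with a symbol, within each contrast. The fit was tested on simulated data with independent noise for each cluster and array. These held no differences in array width, so the test does not cover them. Same-numbered arrays did not deviate together: the mean correlation was -0.015 for equal and 0.0066 for other numbers, so numbers were not used as pairs.

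Alternatives were median centring, quantile normalization, the array's interquartile range as covariate, trended robust variances, array weights, the compared groups alone, leaving out the lowest 40 percent of clusters or the 4 widest arrays, a replicate block, clusters without a symbol included, the member cluster of lowest mean, and each array left out. Any member could be named. Values in every array were given for 1 gene per main role and for the largest called changes, and other lists were named by their largest changes. Bub1, Aurkb, Cenpf and Prc1 were added after their values were seen. The members and lists were chosen with earlier results of these data known. Cdkn1a, Hjurp and Kifc1 were not analysed here.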

Additional observations from a re-analysis of the deposited data

Results flagged for a closer look

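The effect of the pulse on Ccnb2 differed between days 5 and 3, by -0.57 (log2), being -0.31 at day 5 and 0.26 at day 3. It was the only member with such a difference between days.

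For 5 members the change from day 1 to day 5 differed between the time-matched controls and the withdrawal arrays. The difference, controls minus withdrawal, was 0.57 for Birc5, 0.54 for Spc24, 0.47 for Ndc80, 0.42 for Cdc20 and 0.32 for Kif20a. Replicates 2 and 3 of the day 5 controls and replicate 3 of the day 1 controls were among the 4 widest arrays, and the part of array width in these differences was not tested.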

How the results depend on the processing

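Counts of members past the threshold under other settings are given where they moved by more than 1.5 times. The shares of all clusters under those settings were not counted. At day 1 of withdrawal, 1 member was reported, and there were 3 with quantile normalization, with the interquartile range as covariate and without the lowest 40 percent of clusters, 2 with trended robust variances and without the 4 widest arrays, and 5 with array weights. For day 5 against day 1, the 19 of the controls became 9 with the compared groups alone. The 11 of the pulsed arrays became 7 with median centring, 18 with the covariate and 25 with array weights. For the pulse at day 1, 0 members became 3 with quantile normalization and without the 4 widest arrays, 2 with the covariate, 9 with array weights and 1 without the lowest clusters. At day 3, 0 became 3 with array weights and 1 against withdrawal. At day 5, 17 became 9 with quantile normalization, 1 with the covariate, 33 with array weights, 0 with the compared groups alone and 7 against withdrawal. The 12 of the average pulse effect became 0 with the covariate. Without the 4 widest arrays only replicate 1 of the day 5 controls was left, so counts that rest on that group are not given. The cause was not tested. Kif20a reversed at day 5, at 0.0041 against withdrawal (adjusted p = 0.978).

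With each array left out in turn, the counts ran from 0 to 1, 15 to 17 and 13 to 19 for days 1, 3 and 5 of withdrawal, from 12 to 18, 13 to 23 and 8 to 12 for day 5 against day 1 in withdrawal, control and pulsed arrays, and from 0 to 3, 0 to 0 and 3 to 31 for the pulse at days 1, 3 and 5.

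The labels' replicate numbers are shared between groups, but 7 of 30 arrays correlated best with their own number. With the number as a replicate block the counts were 1, 18 and 20 for withdrawal, 18, 19 and 11 for day 5 against day 1, and 0, 0 and 16 for the pulse.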
